A study of Mus musculus with 30 samples.

Results

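The complement genes described here are C1qa, C1qb, C1qc, C1s, C2, C3, C3ar1, C5ar1 and Cfb, followed in the back skin of D6-deficient and wild type (WT) mice before and after application of the phorbol ester TPA. They were chosen by symbol from the deposited probe annotation, and every probe set that carried one of the 9 symbols was taken. This gave 16 of the 45037 non-control probe sets of the array, and all 16 were among the 36029 kept after the dimmest 20% of probe sets were left out. One of the 16 carries the symbols of both C2 and Cfb, which are neighbouring genes, and Cfb has no probe set of its own, so no value below belongs to Cfb alone.

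The study asked how skin inflammation fails to resolve in mice that lack D6, an atypical receptor (gene Ccbp2 on the array) that binds inflammatory CC chemokines and removes them without signalling. All mice were female, of the strain 129–C57BL/6 and 8 to 12 weeks old, and all had shaved back skin. Treated mice of either genotype received 3 applications of 50 μM TPA 24 h apart, and whole skin was taken 1, 2, 4 or 6 days afterwards. The day 0 mice of either genotype received acetone, the solvent, although their titles read untreated, and there were no acetone arrays at later days, so that day and treatment cannot be told apart for a change from day 0. Each of the 10 genotype-by-day groups held 3 arrays, 1 for each mouse as the labels number biological replicates, 30 arrays in all. The deficiency is in the whole animal, and whole back skin holds epidermis, dermis, fat and any infiltrating cells.

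Complement is a cascade of plasma and tissue proteins that marks surfaces for removal and calls in leukocytes. In the classical pathway, the recognition molecule C1q, built from the chains encoded by C1qa, C1qb and C1qc, binds antibody or damaged cells and its partner proteases, C1r and C1s, cleave C4 and C2 to form a C3 convertase. In the alternative pathway, factor B (Cfb) takes the place of C2. Cleavage of C3 and C5 releases the small fragments C3a and C5a, which act on myeloid cells through the receptors encoded by C3ar1 and C5ar1. Liver makes most circulating complement, whereas C1q comes largely from macrophages and dendritic cells, and skin cells make C3 and factor B locally.

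In the RefSeq annotation of GRCm38.p6, C1qa (chromosome 4, 136895916 to 136898844), C1qc (chromosome 4, 136889801 to 136892936) and C1qb (chromosome 4, 136880126 to 136886200) lie side by side. C2 (chromosome 17, 34862602 to 34882100) and Cfb (chromosome 17, 34856374 to 34862514) also adjoin each other, and C3 lies farther along at 57203967 to 57228136. C3ar1 (122847140 to 122856157) and C1s1, the RefSeq name of the mouse gene listed as C1s (124530344 to 124542392), are on chromosome 6, and C5ar1 is on chromosome 7 (16246743 to 16259540). The genome build behind the probe annotation was not given in the sources used here.

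RefSeq promoter windows, from 250 bases before to 50 bases after an annotated start, were matched for 6 of the 9 genes. They were searched on both strands for 6 motifs of factors active in myeloid cells or after phorbol ester: the interferon regulatory factor (IRF) core AANNGAAA, the STAT site GAS as TTCNNNGAA, the TPA response element TGANTCA, PU.1 as GAGGAAG, C/EBP as TTGCNNAA and the NF-kappaB consensus. The windows of C1qc, C3ar1 and C3 are printed because C1qc and C3ar1 belong to the genes that moved with genotype, C3 does not, and the matches in them, in capitals, differ. Each window is on the minus strand of GRCm38.p6 and is written 5′ to 3′ along the gene (C1qc chr4:136892865-136893164, C3ar1 chr6:122856108-122856407, C3 chr17:57228087-57228386).
C1qc: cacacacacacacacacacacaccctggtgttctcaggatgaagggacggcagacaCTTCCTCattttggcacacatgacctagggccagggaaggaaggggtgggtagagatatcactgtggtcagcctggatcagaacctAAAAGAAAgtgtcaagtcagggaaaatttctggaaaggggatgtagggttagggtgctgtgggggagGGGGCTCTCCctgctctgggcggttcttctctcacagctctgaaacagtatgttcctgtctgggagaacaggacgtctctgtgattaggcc
C3ar1: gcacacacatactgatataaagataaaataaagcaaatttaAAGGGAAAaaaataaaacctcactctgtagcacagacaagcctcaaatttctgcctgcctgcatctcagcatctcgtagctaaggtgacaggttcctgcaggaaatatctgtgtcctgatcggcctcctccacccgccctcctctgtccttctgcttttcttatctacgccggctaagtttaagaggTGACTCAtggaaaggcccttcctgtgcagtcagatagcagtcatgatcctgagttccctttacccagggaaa
C3: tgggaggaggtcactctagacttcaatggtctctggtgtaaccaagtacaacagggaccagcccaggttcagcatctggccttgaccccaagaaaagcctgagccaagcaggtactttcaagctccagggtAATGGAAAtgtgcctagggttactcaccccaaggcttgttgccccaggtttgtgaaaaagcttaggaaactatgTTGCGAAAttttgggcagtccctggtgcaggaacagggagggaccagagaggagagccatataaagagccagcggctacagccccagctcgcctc
The C1qc window held a PU.1 match from -194 to -188, an IRF core from -108 to -101 and an NF-kappaB match from -41 to -32, counted from the start. The C3ar1 window held an IRF core from -209 to -202 and a TPA response element from -22 to -16. The C3 window held an IRF core from -119 to -112 and a C/EBP match from -45 to -38. Of C1s, 1 of 2 windows held a C/EBP match, and the windows of C1qb and C5ar1 held none of the 6 motifs. Among all 32851 windows of this length, 23.9% held the IRF core, 8.3% GAS, 7.81% the TPA response element, 13.6% PU.1, 10.8% C/EBP and 8.46% the NF-kappaB consensus. A match is a description of the letters and not evidence that a factor binds there.

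**Figure D1:**
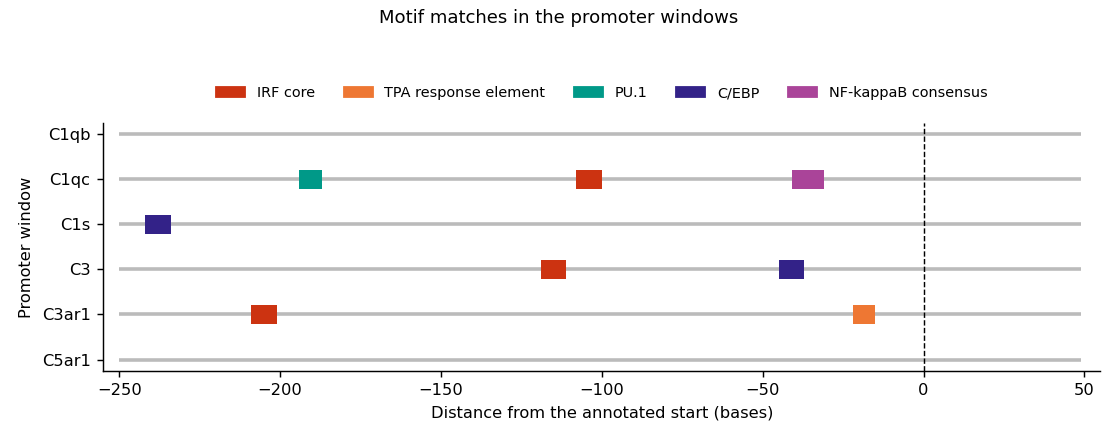
Motif matches in the promoter windows of 6 complement genes, plotted as distance in bases from the annotated start (dashed line, the first window for C1s). Each grey line is a window and each coloured block a match. C1qc holds 3 matches, C3 and C3ar1 hold 2 each, and C1qb and C5ar1 hold none.

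Levels below are log2 of the deposited array intensity, and a difference of 1 is a doubling of that intensity. A change was called at an adjusted p under 0.05 (limma, Benjamini-Hochberg over all 36029 tested probe sets), and the share of all tested probe sets called the same way is given beside each count. The arrays were alike in overall signal, with medians from 5.64 to 5.80 and pairwise correlations from 0.952 to 0.995. The targeted gene, Ccbp2, separated the genotypes on 1 of its 3 probe sets (1422112_at, 4.15 to 5.76 in the 15 WT arrays and 3.30 to 3.86 in the 15 D6-deficient arrays). On the other two the genotypes overlapped, at 5.14 to 6.26 in WT and 4.55 to 5.42 in D6-deficient arrays on 1422111_at and at 6.69 to 8.54 against 6.59 to 8.09 on 1437937_at. Keratinocyte genes were among the bright signals, with Krt14 between 12.66 and 14.36, as a skin sample should hold, while the mean level of 5 liver genes stayed between 4.89 and 5.73, with Alb, the brightest of them, at 6.10 or above on every array. Because whole tissue was measured, more cells of a type and more RNA per cell cannot be told apart in any result below, and 3 arrays in a group limit the precision of each. Where arrays are said not to overlap, or all to lie above or below others, this only describes 3 arrays against 3. The share of all tested probe sets that separate in this way was not counted.

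Of the 10 groups, D6-deficient day 2 held the highest mean for 10 of the 16 complement probe sets, where it did so for 7.57% of all tested probe sets. These were C1qa, all 3 for C1qb, C1qc, C1s, all 3 for C3ar1 and 1 of 3 for C2. C3 and the other two C2 probe sets were highest in WT on day 0, the shared C2 and Cfb probe set and C5ar1 on 1439902_at in D6-deficient skin on day 4, and C5ar1 on 1422190_at in WT on day 4. Within the D6-deficient days after TPA, 12 of the 16 had their highest mean on day 2 (17.7% of all tested) and 4 on day 4 (33.4%). Within the WT days after TPA, 5 were highest on day 2 (20.4%), 8 on day 4 (34.6%) and 3 on day 6 (24.3%).

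In D6-deficient mice, 12 of the 16 probe sets rose by day 2 against day 0 and none fell, where 17.5% of all tested probe sets rose. The median change of the 16 was 1.01, against -0.01 over all tested probe sets. Of the 16, 5 rose more than 3-fold (1.7% of all tested): the shared C2 and Cfb probe set, the 3 C3ar1 probe sets and 1 of 2 for C5ar1. Genes with all their probe sets up on day 2 were C1qa, C1qb, C1qc, C1s, C3ar1 and C5ar1, whereas no C2 or C3 probe set passed the test. On day 1, 3 were up (18.2% of all tested), 1 each for C1qb, the shared C2 and Cfb probe set and C5ar1. On day 4, 7 were up (18.8%) and none was down (22.4%), and 3 of the 7, the shared probe set and both for C5ar1, were up more than 3-fold (1.97%). Without D6-deficient day 4 replicate 3 the day 4 count was 3. On day 6, C1qa and 1 probe set for C1qb were up (16.0%) and C3 was down (15.7%). The day 6 call for C1qa, 0.47, was lost without replicate 1 or 3 of D6-deficient day 0 or of D6-deficient day 6, and the day 1 call for the shared probe set, 0.74, without replicate 3 of D6-deficient day 0 or day 1.

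In WT mice most members first fell. On day 1, 9 of the 16 were lower than on day 0 (12.7% of all tested) and none was higher (11.4%), with a median change of -0.59 against -0.01 over all tested probe sets. On day 2 the shared C2 and Cfb probe set was higher (11.0%) and 1 of 3 for C2 lower (15.0%). On day 4, 3 were higher (17.3%) and 2 for C2 lower (21.8%), and on day 6, 4 were lower (11.9%), C1qc, C3 and 2 for C3ar1, of which none passed without WT day 6 replicate 2. The 3 that rose by day 4 were the shared C2 and Cfb probe set and both C5ar1 probe sets, and the C5ar1 probe sets rose more than 3-fold (1.76% of all tested). Without the WT day 0 replicate 1 array the day 1 count was 3. Of the quoted probe sets, C1qa, C1qc, C2, C3ar1 and C5ar1 then lost their calls. Their changes were -0.43, -0.57, -0.63, -0.59 and -0.77 without that array, against -0.48, -0.61, -0.66, -0.72 and -0.93 with it.

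Between genotypes on the same day, the direction turned from day 0 to day 2. On day 0 all 16 probe sets were lower in D6-deficient skin and 3 passed the test (0.855% of all tested lower), namely C1qa, 1 of 3 for C1qb and 1 of 3 for C3ar1. On day 2 all 16 were higher in D6-deficient skin and 6 passed (2.46% higher): the shared C2 and Cfb probe set, all 3 of C3ar1 and both of C5ar1. The median difference was -0.54 on day 0 and 0.51 on day 2, against -0.00 and -0.02 over all tested probe sets. On days 1, 4 and 6 none of the 16 passed, where 0.0555%, 0.513% and 0.125% of all tested probe sets did in either direction. At an unadjusted p under 0.05 in limma, 0, 8 and 0 of the 16 passed on those days. Over all 36029 tested probe sets, 2887, 3620 and 3015 did. Of the 16 differences on day 4, 7 were positive. With the methods' t-test and the same adjustment none of the 16 passed on day 0 or day 2, and without WT day 0 replicate 2 none passed on day 0 in limma.

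The change from day 0 to day 2 was larger in D6-deficient than in WT mice for all 16 probe sets, and 11 passed the test of that difference (2.78% of all tested higher). Of these, 4 exceeded 3-fold (0.555%), 2 each for C3ar1 and C5ar1. The median difference of changes was 1.16. It combines a lower day 0 and a higher day 2, and the day 0 part made up between 14.8% and 69.2% of it, more than the day 2 part in 8 of the 16 probe sets. Of the corresponding tests on day 1 (0.0194% of all tested in either direction), day 4 (0.608%) and day 6 (0.025%), none passed for a member. At an unadjusted p under 0.05 in limma, 9, 5 and 5 of the 16 passed on those days, beside 3494, 3949 and 2886 of all 36029 tested probe sets. Without the WT day 2 replicate 1 array, the day 2 difference passed for 2 of the 16 probe sets and the difference of changes for 7. The comparisons of a genotype with its day 0 and the differences of changes share the day 0 arrays.

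**Figure D2:**
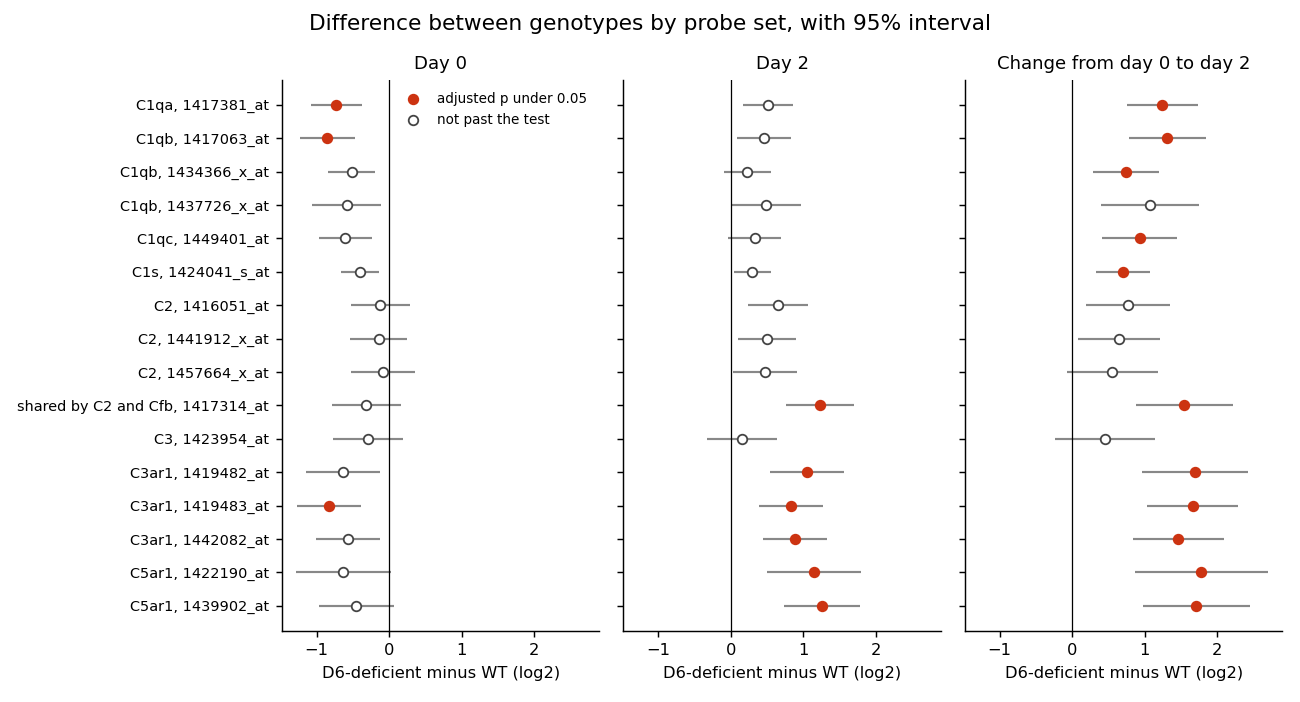
Difference between D6-deficient and WT skin for each of the 16 complement probe sets on day 0, on day 2 and in the change from day 0 to day 2 (log2, points with 95% intervals from the limma fit, 3 arrays per group). All 16 points lie below 0 on day 0 and above 0 on day 2. Filled points passed at adjusted p under 0.05.

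In D6-deficient mice the C1q chains all rose by day 2, but their quoted probe sets were less alike on day 1. On day 1 against day 0 the quoted probe sets read 0.43 for C1qa, 0.81 for C1qb and -0.02 for C1qc, and only C1qb passed. With its probe sets averaged, C1qb read 0.18 on day 1 and did not pass. On the C1qa probe set, the WT arrays read 12.28, 12.29 and 11.98 on day 0 and 12.06, 12.19 and 12.07 on day 2. The D6-deficient arrays read 11.25, 11.64 and 11.47 on day 0 and 12.77, 12.56 and 12.54 on day 2. The D6-deficient arrays were thus all below WT before TPA and all above WT on day 2, with no overlap on either day. C1qa rose by 1.17 ± 0.17 (SE) in D6-deficient mice (limma, adjusted p = 7.28e-06, n = 3 per group) and read -0.07 ± 0.17 in WT (limma, adjusted p = 0.794). The D6-deficient arrays differed from WT by -0.73 on day 0 (limma, adjusted p = 0.0273) and by 0.52 on day 2, with a 95% interval of 0.17 to 0.86 (limma, adjusted p = 0.0901). The rises of the 2 genotypes differed by 1.24, with a 95% interval of 0.75 to 1.74 (limma, adjusted p = 0.00235). The day 0 call for C1qa was lost on leaving out any of 4 of the 6 day 0 arrays (replicates 1 and 2 of WT, replicates 1 and 3 of D6-deficient). By day 4 the D6-deficient arrays had returned to 11.47, 11.31 and 11.62, close to their day 0 and again all below WT, at 11.67, 12.03 and 12.04. On day 4 the D6-deficient arrays were also all below WT for C1qc and for 2 of 3 C1qb probe sets. These 4 differences, -0.45 for C1qa, -0.66 and -0.49 for C1qb and -0.52 for C1qc, did not pass the test. The share of all tested probe sets that separate in this way was not counted.

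C1qb, the B chain, was measured by 3 probe sets. The brightest of those with 1 symbol, 1417063_at, read 11.87, 12.03 and 11.73 in WT and 10.75, 11.35 and 10.98 in D6-deficient skin on day 0. On day 2 it read 12.11, 12.11 and 12.04 in WT and 12.66, 12.50 and 12.49 in D6-deficient skin. Again every D6-deficient array was below WT on day 0 and above it on day 2. The rise in D6-deficient mice was 1.52 ± 0.18 (limma, adjusted p = 6.18e-07) and exceeded that in WT by 1.31 (limma, adjusted p = 0.00289). C1qb on this probe set was already up on day 1 in D6-deficient mice, by 0.81 (limma, adjusted p = 0.00128), and was up on day 6, by 0.86 (limma, adjusted p = 0.000978). On day 4 it read 0.49, a call lost without any of 4 arrays (replicates 1 and 3 of D6-deficient day 0, replicates 2 and 3 of D6-deficient day 4). The other two C1qb probe sets rose by 0.57 and 0.84 on day 2, read -0.15 and -0.14 on day 1 and differed between the genotypes in the day 2 change by 0.74 and 1.07, of which only the first passed. On day 6 in D6-deficient mice they had means of 10.95 and 11.16, against 10.87 and 11.06 on day 0, neither difference past the test. Both are of the _x_at class, which holds probes that can match other transcripts. The day 0 difference on 1417063_at, -0.85 (limma, adjusted p = 0.0178), was lost without WT replicate 2 or without D6-deficient replicate 1 or 3.

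C1qc, the C chain, read 11.29, 11.29 and 11.01 in WT and 10.32, 10.92 and 10.54 in D6-deficient skin on day 0. On day 2 the values were 11.09, 11.07 and 11.07 in WT and 11.42, 11.45 and 11.34 in D6-deficient skin. The order of the genotypes again turned over without overlap. The D6-deficient rise was 0.81 ± 0.18 (limma, adjusted p = 0.000793), and it exceeded the WT change by 0.93, with a 95% interval of 0.41 to 1.45 (limma, adjusted p = 0.0277). That last call was lost on leaving out any of 7 of the 12 arrays (replicates 1 and 3 of D6-deficient day 0, replicate 2 of D6-deficient day 2 and replicates 1 and 2 of WT day 0 and of WT day 2).

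C1s, the protease that cleaves C4 and C2, moved less. Its probe set 1424041_s_at is of the _s_at class, which can match several related transcripts. On day 0 it read 10.87, 10.86 and 10.94 in WT and 10.44, 10.78 and 10.25 in D6-deficient skin, and on day 2 it read 10.63, 10.89 and 10.84 against 11.22, 11.12 and 10.92. The D6-deficient arrays were all lower on day 0 and all higher on day 2. C1s rose by 0.60 ± 0.13 on day 2 in D6-deficient mice (limma, adjusted p = 0.000561) and by 0.35 on day 4 (limma, adjusted p = 0.031), while in WT it read -0.11 on day 2. The day 4 call was lost without replicate 1 or 3 of D6-deficient day 0 or of D6-deficient day 4. The changes to day 2 differed by 0.70 (limma, adjusted p = 0.0194), a call lost without any of 5 arrays (replicates 1 and 3 of D6-deficient day 0, replicates 1 and 2 of D6-deficient day 2 and replicate 1 of WT day 2).

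**Figure D3:**
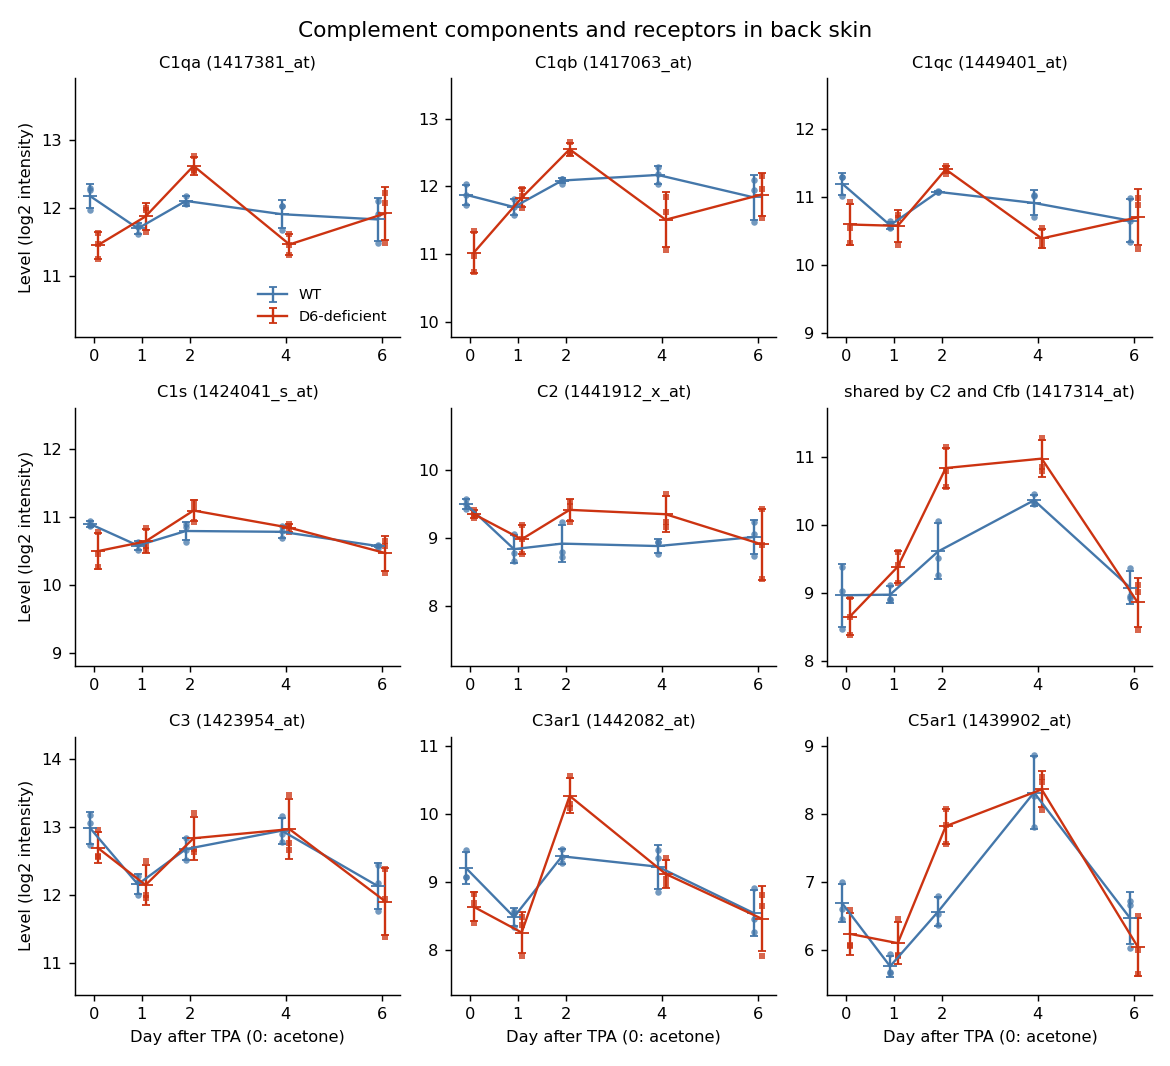
Level (log2 intensity) of each quoted complement probe set against day after TPA, with acetone-treated skin as day 0, in WT (blue circles) and D6-deficient mice (red squares). Points are arrays, lines join group means and bars are SD (n = 3), and every panel spans the same log2 range. C1qa, C1qb, C1qc and C3ar1 were highest on day 2 in D6-deficient skin, and C5ar1 was highest on day 4 in D6-deficient skin.

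The probe set shared by C2 and Cfb gave the widest swing of the convertase components. In WT it read 9.39, 9.03 and 8.47 on day 0, 9.51, 10.06 and 9.26 on day 2 and 10.45, 10.30 and 10.33 on day 4. In D6-deficient skin it read 8.64, 8.93 and 8.38 on day 0, 11.15, 10.56 and 10.80 on day 2 and 11.28, 10.80 and 10.85 on day 4. The genotypes overlapped on day 0, and every D6-deficient array was above every WT array on days 2 and 4. The rise in D6-deficient mice was 2.19 ± 0.23 on day 2 (limma, adjusted p = 9.04e-08) and 2.33 ± 0.23 on day 4 (limma, adjusted p = 1.99e-08). The WT rise was 0.64 on day 2 (limma, adjusted p = 0.0392) and 1.40 on day 4 (limma, adjusted p = 3.34e-05), and the day 2 call was lost without WT day 0 replicate 2 or 3 or without WT day 2 replicate 1 or 2. On day 2 the D6-deficient arrays were higher than WT by 1.23, with a 95% interval of 0.76 to 1.70 (limma, adjusted p = 0.00148), whereas on day 4 the difference was 0.61 (limma, adjusted p = 0.296). By day 6 both genotypes overlapped, at 8.92 to 9.36 in WT and 8.45 to 9.12 in D6-deficient skin. The rises to day 2 differed by 1.54 (limma, adjusted p = 0.00469), a call kept on leaving out each array in turn.

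C2, the classical pathway partner of C4, moved less. Its quoted probe set 1441912_x_at read 9.57, 9.42 and 9.51 in WT on day 0 and 8.79, 8.73 and 9.24 on day 2. In D6-deficient skin it read 9.35, 9.30 and 9.42 on day 0 and 9.54, 9.24 and 9.48 on day 2. The WT arrays dropped below their day 0 and the D6-deficient arrays stayed around theirs. In WT, C2 fell by 0.66 on day 1 (limma, adjusted p = 0.0141), by 0.58 on day 2 (limma, adjusted p = 0.0276) and by 0.62 on day 4 (limma, adjusted p = 0.0132). In D6-deficient mice its day 2 change was 0.06, with a 95% interval of -0.34 to 0.46 (limma, adjusted p = 0.837). The changes differed by 0.64, with a 95% interval of 0.08 to 1.21 (limma, adjusted p = 0.21), and the other two C2 probe sets gave 0.77 and 0.55, neither past the test. Between the genotypes none of the 3 C2 probe sets passed on day 2 or 4, at 0.47 to 0.65 on day 2 and 0.47 to 0.57 on day 4. On both days their D6-deficient arrays were all above WT, a separation whose share over all tested probe sets was not counted. Of these, 1416051_at was also above its own day 0 without overlap in D6-deficient mice, by 0.39 on day 2 and 0.34 on day 4, neither past the test. The WT calls for C2 were lost without 1 array in several cases, on day 1 without WT day 0 replicate 1 or WT day 1 replicate 1 or 3, on day 2 without WT day 0 replicate 1 or 3 or WT day 2 replicate 1 or 2, and on day 4 without WT day 4 replicate 3.

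The shared probe set was set against the C2 probe sets array by array. Its level minus the mean of the 3 C2 probe sets was 0.26, 0.00 and -0.68 in WT and -0.36, -0.09 and -0.56 in D6-deficient skin on day 0. On day 4 it was 1.77, 1.69 and 1.89 in WT and 1.94, 1.81 and 1.87 in D6-deficient skin, with every array above every day 0 array. Averaged over the genotypes, this difference grew by 0.76 from day 0 to day 1, by 1.57 to day 2, by 2.07 to day 4 and by 0.54 to day 6. An exact permutation test of arrays within genotype gave a two-sided p of 0.005 for each of days 1, 2 and 4, the smallest that the 400 permutations allow, and 0.02 for day 6. The offset between probe sets has no meaning as a level, and how much of the shared signal comes from Cfb was not measured.

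**Figure D4:**
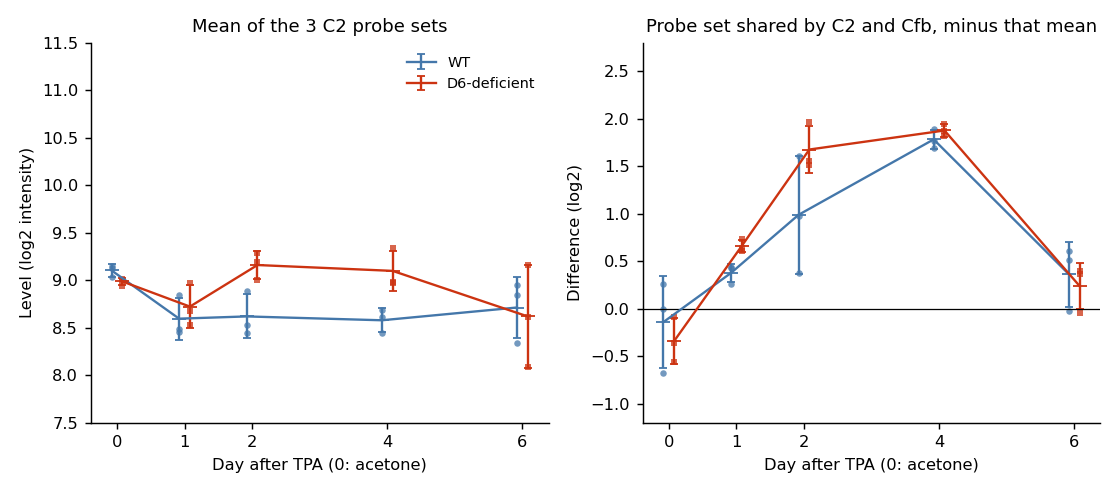
Left, the mean level of the 3 C2 probe sets (log2 intensity) and right, the level of the probe set shared by C2 and Cfb minus that mean (log2), against day after TPA in WT (blue) and D6-deficient (red) skin. Points are arrays, lines join group means and bars are SD (n = 3). The difference on day 4 averaged 1.78 in WT and 1.88 in D6-deficient skin, from -0.14 and -0.34 on day 0.

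C3, the protein on which all pathways converge, was bright in every group and differed little between genotypes. It read 13.05, 12.73 and 13.18 in WT and 12.58, 12.96 and 12.55 in D6-deficient skin on day 0, and 12.52, 12.84 and 12.67 against 13.20, 12.68 and 12.63 on day 2. The genotypes overlapped on both days, and the largest day 2 value was that of a single D6-deficient array. The day 2 difference was 0.16, with a 95% interval of -0.33 to 0.65 (limma, adjusted p = 0.831). Without D6-deficient day 2 replicate 1 it was -0.02. C3 fell by 0.83 in WT on day 1 (limma, adjusted p = 0.0116) and by 0.86 on day 6 (limma, adjusted p = 0.0106), and by 0.79 in D6-deficient mice on day 6 (limma, adjusted p = 0.0122). In D6-deficient mice its day 1 change was -0.55 and did not pass. The day 1 call in WT was lost without WT day 0 replicate 3 or WT day 1 replicate 3, that on day 6 without WT day 6 replicate 2, and that in D6-deficient mice without day 0 replicate 2 or day 6 replicate 2.

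Both anaphylatoxin receptors rose in D6-deficient skin, C3ar1 with its highest mean on day 2 and C5ar1 on day 4. The quoted C3ar1 probe set, 1442082_at, read 9.47, 9.07 and 9.07 in WT and 8.68, 8.40 and 8.81 in D6-deficient skin on day 0. On day 2 it read 9.27, 9.49 and 9.36 in WT and 10.56, 10.09 and 10.14 in D6-deficient skin. The D6-deficient arrays went from below every WT array to above every WT array. By day 4 they read 9.35, 8.96 and 9.04, among the WT values of 8.85, 9.46 and 9.35. C3ar1 rose by 1.63 ± 0.22 on day 2 in D6-deficient mice (limma, adjusted p = 2.17e-06), against 0.17 in WT (limma, adjusted p = 0.603). The day 2 difference was 0.89 (limma, adjusted p = 0.0142) and the rises differed by 1.46, with a 95% interval of 0.83 to 2.09 (limma, adjusted p = 0.0045). The other two C3ar1 probe sets gave 1.05 and 0.83 for the day 2 difference and 1.69 and 1.66 for the difference of rises, all past the test. On day 1 in WT, C3ar1 fell by 0.72 on 1442082_at and by 0.75 on 1419483_at, whereas 1419482_at read 0.03, and the fall on 1442082_at was lost without WT day 0 replicate 1 or WT day 1 replicate 2. On 1442082_at the day 2 difference was lost without D6-deficient replicate 1 or without WT replicate 1 or 3.

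C5ar1, the C5a receptor of neutrophils and macrophages, rose in both genotypes, on day 2 in D6-deficient skin and by day 4 in WT. On 1439902_at the WT arrays read 7.01, 6.46 and 6.61 on day 0, 6.53, 6.79 and 6.37 on day 2 and 8.27, 7.81 and 8.88 on day 4. The D6-deficient arrays read 6.07, 6.59 and 6.05 on day 0, 8.07, 7.84 and 7.56 on day 2 and 8.48, 8.55 and 8.06 on day 4. On day 2 the D6-deficient arrays lay above all WT arrays, and on day 4 the genotypes overlapped. C5ar1 rose by 1.58 ± 0.25 on day 2 and by 2.13 ± 0.25 on day 4 in D6-deficient mice (limma, adjusted p = 2.49e-05 and 3.48e-07). In WT it read -0.13 on day 2 (limma, adjusted p = 0.761) and rose by 1.63 ± 0.25 on day 4 (limma, adjusted p = 1.7e-05). The genotypes differed by 1.26 on day 2 (limma, adjusted p = 0.00298) and by 0.05 on day 4, and the rises to day 2 differed by 1.71, with a 95% interval of 0.98 to 2.45 (limma, adjusted p = 0.0045). The second C5ar1 probe set gave 1.15 for the day 2 difference and 1.78 for the difference of rises, both past the test. The 2 probe sets differed in sign against day 0 on days 1 and 6 in both genotypes and on day 2 in WT. On day 1 in WT, 1439902_at fell by 0.93 (limma, adjusted p = 0.0087) and 1422190_at read 0.02. On day 2 in WT they read -0.13 and 0.61, neither past the test, with the arrays of 1422190_at all above day 0. On day 1 in D6-deficient mice 1439902_at read -0.14 and 1422190_at rose by 0.97 (limma, adjusted p = 0.0179). On day 6 they read -0.22 and 0.53 in WT and -0.19 and 0.79 in D6-deficient mice, none past the test. In the order of the 10 group means of 1439902_at, D6-deficient day 4, WT day 4 and D6-deficient day 2 came first. The step from the last of these to the next group, 1.13, was the only one at which the arrays of neighbouring groups did not overlap. On 1422190_at the same groups came first, led by WT day 4, with a step of 1.15 after them. On that probe set the step from WT day 0 to D6-deficient day 0, 0.63, was also without overlap.

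The other complement genes were followed on a wider list of 42 symbols, of which 55 of 68 probe sets were tested. In D6-deficient mice on day 2, 22 of the 55 rose (17.5% of all tested) and 6 fell (20.6%), with a median of 0.24 against -0.01 over all tested probe sets. Soluble regulators contributed 9 rises of 13 probe sets, other receptors 6 of 10, initiating components 5 of 16, membrane regulators 1 of 11 and terminal components 1 of 5. Between the genotypes on day 2, 10 of the 55 were higher (2.46%) and none was lower, 5 among soluble regulators and 5 among other receptors. In the change from day 0 to day 2, 12 of the 55 rose more in D6-deficient mice (2.78%) and 1, Masp1, less (2.62%), by -0.87 on 1 of its 5 probe sets (limma, adjusted p = 0.0255), the other 4 reading -0.70 to 0.15. On day 0, 3 of the 55 were lower in D6-deficient skin, Fcna by -1.49, C6 by -1.0 and Cd59a by -0.86, where 0.855% of all tested probe sets were lower, and none was higher (0.713%). Masp1, Fcna and C6 are named because these counts were small, after their values were seen.

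Among the receptors on that list, Vsig4, a macrophage receptor for C3b, read 5.23, 5.76 and 5.09 in WT and 4.49, 4.44 and 4.43 in D6-deficient skin on day 0. On day 2 it read 4.52, 5.33 and 5.43 in WT and 6.74, 7.11 and 6.99 in D6-deficient skin, with no overlap. The day 2 difference was 1.86 ± 0.45 (limma, adjusted p = 0.0146) and the changes differed by 2.77 (limma, adjusted p = 0.00959). Itgb2, the common chain of complement receptors 3 and 4, was higher by 0.76 on day 2 (limma, adjusted p = 0.00897), at 10.75, 10.59 and 10.72 against 9.82, 10.10 and 9.87. Its partner Itgam differed by 0.85, which did not pass (limma, adjusted p = 0.0552), and by 1.43 in the change from day 0, which did (limma, adjusted p = 0.0176). Itgax, the other partner, read 0.46 and -0.07 for the same comparisons, neither past the test. Cd93, once proposed as a C1q receptor, was higher on day 2 on 3 of its 5 probe sets, by 0.79 to 0.89, and on 1 of them also on day 4, by 0.80 (limma, adjusted p = 0.0289).

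Of the regulators, Cfi, the protease that inactivates C3b, read 7.19, 7.51 and 7.25 in D6-deficient and 5.92, 6.49 and 6.00 in WT skin on day 2. It was higher there by 1.18 (limma, adjusted p = 0.0296), and it had risen in both genotypes, by 1.87 and 0.98. Clu, which encodes clusterin, an inhibitor of the terminal complex, was higher on day 2 on all 4 probe sets, by 0.48 to 0.63. The membrane regulator Cd55, decay accelerating factor, fell on 2 of its 3 probe sets in both genotypes, by 1.44 and 1.45 in D6-deficient and by 1.40 and 1.58 in WT mice on day 4. C4b, which encodes C4, fell in WT by 0.97 on day 4 and read -0.18 in D6-deficient mice, and the difference of 0.79 between these changes did not pass. Cd59a, which blocks the terminal complex, fell in WT by 1.12 on day 4 and read -0.21 in D6-deficient mice on 1418710_at, where the D6-deficient day 0 was already lower, and the difference of 0.91 between these changes did not pass. Colec11, a lectin of the lectin pathway, read -2.28 in WT and -2.83 in D6-deficient mice on day 4 on 1 of 2 probe sets, both past the test. Cr1l, which encodes Crry, read -0.74 and -1.05 on 1 probe set and 0.32 and 0.33 on the other, all past the test.

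Of the marker lists, most macrophage, neutrophil and interferon response genes were higher in D6-deficient skin on day 2, and the other lists were not. Of 10 macrophage genes, 6 were higher in D6-deficient skin (2.46% of all tested) and none was lower, and the mean level over the list ran from 11.26 to 11.40 in D6-deficient and from 10.45 to 10.68 in WT arrays. The 6 were Fcgr1, Cd14, Msr1, Mpeg1, Cd68 and Lyz2, while Csf1r read 0.12, Mrc1 0.00, Emr1 0.26 and Cd163 -0.15, none past the test. No defining macrophage marker was near the floor in any group, the dimmest being Msr1 at 6.70 or above. On day 0 the mean level of the list ran from 10.07 to 10.33 in D6-deficient and from 10.46 to 10.69 in WT arrays, lower in every D6-deficient array. Of 9 neutrophil genes 7 were higher on day 2, with mean levels of 9.69 to 10.90 against 7.72 to 8.68, and of 9 interferon response genes 8 were higher, with 10.25 to 10.82 against 7.61 to 7.97. Of the neutrophil genes 1 was already higher in D6-deficient skin on day 0. In the change from day 0 to day 2, 6 of the 9 neutrophil genes rose more in D6-deficient mice (2.78% of all tested), and the lowest difference of changes was -2.31. Of 6 keratinocyte genes, 3 were higher in D6-deficient skin on day 0 (0.713%), with mean levels of 12.70 to 12.84 against 12.15 to 12.28, and none on day 2. Of 6 genes of dendritic and Langerhans cells, 2 were lower on day 2, where 717 of all 36029 tested probe sets were lower. None of 8 fibroblast genes differed on day 2 or on day 0. On day 2 no gene of the T cell, mast cell, endothelium, adipocyte or liver lists passed. The part of these cell types in the complement results was not tested.

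**Figure D5:**
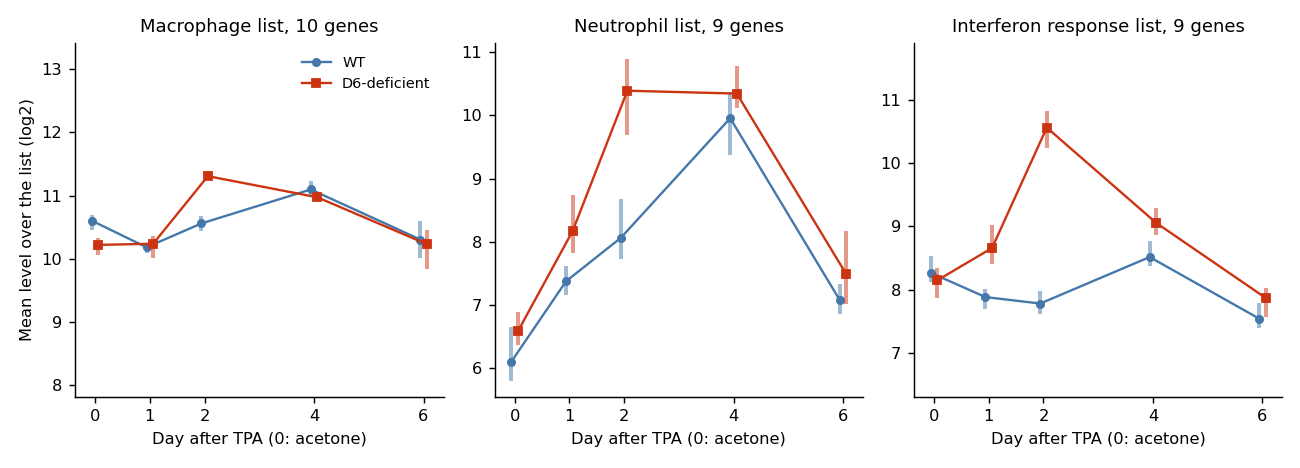
Mean level (log2 intensity) of the macrophage, neutrophil and interferon response lists against day after TPA in WT (blue circles) and D6-deficient (red squares) skin. Symbols are the mean of 3 arrays and vertical bars run from the lowest to the highest array. On day 2 the D6-deficient arrays lie above the WT arrays for each list.

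Which genes had group means most like those of a member was described by Pearson's r over the 10 group means, across which all genes share the same 30 arrays. The shared C2 and Cfb probe set was closest to Irf8 (0.985), Ccl3 (0.982) and Slfn2 (0.982). C5ar1 was closest to Ptprj (0.992), Lyn (0.988) and Ifitm3 (0.983), and C3ar1 to Lipa (0.962) and Fgd4 (0.955). C1qa was closest to Gm9757 (0.970), 1190002A17Rik (RefSeq Ak8, 0.962) and Ptpn18 (0.942), of which Gm9757 spanned only 0.25 across the groups. C1s was closest to Marchf1 (0.956), Akap10 (0.951) and 4933412E12Rik (0.951), C2 to Etnk1 (0.970), Tlr3 (0.950) and Fam82a1 (RefSeq Rmdn2, 0.946), and C3 to Agtrap (0.969), Plcl2 (0.959) and Tgfbi (0.949). Group means of Akap10 spanned 0.49, of Etnk1 0.42, of Fam82a1 0.37 and of 4933412E12Rik 0.34. The genes were picked for the highest r among the tested probe sets, so a high r is in part due to that choice.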

How the data were processed

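Female mice of either genotype were sampled in 10 groups of 3, and RNA from whole back skin was hybridized to Affymetrix mouse genome arrays, 30 in all. The authors normalized the scans by robust multiarray analysis (RMA) in GeneSpring GX, and the deposited table holds the resulting linear intensity values per probe set. A second deposited file held only a sample sheet and was not used. Here the values were taken to log2, the 64 control probe sets and the 20% of probe sets with the lowest mean were left out, and each genotype-by-day group was given its own mean in limma 3.58.1 under R 4.3.3 (lmFit, eBayes, every array included), with Benjamini-Hochberg adjustment over 36029 probe sets in each of 17 contrasts and a threshold of 0.05. RMA includes quantile normalization, which gives all arrays the same distribution, and compresses differences at low signal. The limma p-values set a difference of means against the spread between mice within groups. That spread is estimated over all 10 groups and moderated across probe sets. Descriptive steps used Python 3.11.15. Scripts were tested on simulated data.

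Each gene is quoted by its brightest probe set with 1 symbol, and every member is named. Genes of the wider list are named where they passed between the genotypes on day 2 or 4, or were among the 5 largest rises or falls on day 4. The members and lists were chosen with earlier results of these data known. Alternatives were a 3-fold minimum, no filter, median centring, a replicate block, the arrays of a contrast alone, the methods' t-test, probe sets averaged per symbol, 2 sets of arrays split on hybridization controls as a covariate, and each array left out. The split on hybridization controls was also used for values within each set, chosen after the data were seen. The 3 genes with the most similar group means are named for 7 of the quoted probe sets, except 1 that is not reported here.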

Additional observations from a re-analysis of the deposited data

Results flagged for a closer look

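For 7 of the 9 quoted probe sets, the change from day 0 to day 2 differed between D6-deficient and WT mice by the limma test of that difference, and each was larger in D6-deficient mice. The difference of changes was 1.24 for C1qa, 1.31 for C1qb, 0.93 for C1qc, 0.70 for C1s, 1.54 for the probe set shared by C2 and Cfb, 1.46 for C3ar1 and 1.71 for C5ar1. For C2 and C3 it was 0.64 and 0.45 and did not pass. Groups of 3 arrays are too small for a test of single outlying arrays.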

How the results depend on the processing

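No value past the test under the main setting or under an alternative changed sign. Of 2511 recomputed values of single genes, 88 differed in sign from the main value, all of them past no test in either fit: 73 on leaving out an array, 9 with the probe sets of a gene averaged, 4 with median centring and 2 with the hybridization sets as a covariate. Counts of members past the test moved as follows, from main counts in WT of 9, 2, 5 and 4 on days 1, 2, 4 and 6, in D6-deficient mice of 3, 12, 7 and 3, between the genotypes of 3 on day 0 and 6 on day 2, and of 11 for the difference of changes to day 2. With a minimum of 3-fold, and likewise with the methods' t-test unadjusted with 3-fold, they were 0, 0, 2 and 0 in WT, 0, 5, 3 and 0 in D6-deficient mice, 0 and 0 between the genotypes, and 4. With the methods' t-test adjusted they were 2, 0, 5 and 0 in WT, 0, 9, 4 and 0 in D6-deficient mice, 0 and 0 between the genotypes, and 9. With the probe sets of a gene averaged, which leaves 9 symbols, they were 4 on day 1, 1 on day 2 and 3 on day 4 in WT, 1, 7 and 4 on the same days in D6-deficient mice, 3 between the genotypes on day 2, and 7. With the arrays of the contrast only they were 4 on day 2 and 1 on day 6 in WT, 1 on day 6 in D6-deficient mice and 1 between the genotypes on day 0, with median centring 1 on day 2 in WT, and with the hybridization sets as a covariate 5 on day 1 in D6-deficient mice. The cause was not tested. For the difference of changes, the methods' t-test in either form took the day 0 median of each genotype as fixed. Its counts of 4 and 9 there leave out the spread of the day 0 arrays, so they are no check of the 11 in limma.

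Leaving out each array gave 3 to 8, 0 to 2, 3 to 5 and 0 to 4 in WT, 2 to 5, 12 to 12, 3 to 6 and 2 to 5 in D6-deficient mice, 0 to 4 between the genotypes on day 0 and 2 to 6 on day 2, and 7 to 12 for the difference of changes. The lowest counts came without WT day 0 replicate 1 (WT day 1), WT day 0 replicate 3 (WT day 2), WT day 4 replicate 3 (WT day 4), WT day 6 replicate 2 (WT day 6), D6-deficient day 0 replicate 1 (D6-deficient days 1 and 6), D6-deficient day 4 replicate 3 (D6-deficient day 4), WT day 0 replicate 2 (genotypes on day 0) and WT day 2 replicate 1 (genotypes on day 2 and the difference of changes).

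Replicate numbers name arrays and do not pair them: in 0 of 13 contrasts did all same-numbered arrays correlate over 0.1 (range -0.29 to 0.38). With a replicate block the counts were 2 on day 0 and 6 on day 2 between the genotypes, 12 on day 2 in D6-deficient mice and 11 for the difference of changes. Hybridization controls split the arrays into sets of 17 and 13, with 9 of 10 groups in both. Within each set, a comparison added after the data were seen and without a test, the change to day 2 was larger in D6-deficient mice for 16 of 16 probe sets (0.18 to 2.14 and 0.57 to 2.17). The set of 17 held 1 D6-deficient array on day 0 and 1 on day 2, and the set of 13 held 1 WT array on each. On day 2 itself D6-deficient skin was higher for 15 of 16 probe sets in the set of 17 and for 16 in the other. These are the arrays of the main comparison, so the split gives no independent support.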
